A study of Mus musculus with 16 samples.

Results

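Fructose is a main sugar of mammalian seminal fluid, and the seminal vesicle (SV) makes it from glucose by the polyol pathway. The set described here holds 10 genes of this route, listed by name from their roles in it, out of 31274 genes in the expression table. They are *Sord* (sorbitol dehydrogenase), the aldose reductase family genes *Akr1b3*, *Akr1b7* and *Akr1b8*, the sugar carriers *Slc2a1* (GLUT1) and *Slc2a5* (GLUT5), the fructose kinase *Khk*, the hexokinases *Hk1* and *Hk2*, and *Gpi1* (glucose-6-phosphate isomerase). All 10 were in the table, and the 9 other than *Slc2a5* had a mean above 1 FPKM in at least 1 group and were tested.

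RNA was sequenced from the SVs of 5-week-old male mice of C57BL/6 background, in 4 groups of 4 samples. WT-veh and WT-DES are wild type, and αERKO-veh and αERKO-DES are null for oestrogen receptor α (ERα, encoded by *Esr1*) in every tissue. The DES groups received diethylstilbestrol, a synthetic oestrogen, under the skin at 2 µg per pup per day from day 1 to day 5 after birth, and the veh groups received the corn oil carrier alone. The comparisons ask whether neonatal DES changed gene expression at puberty, and whether it did so without ERα. WT pups came from purchased pregnant females and αERKO pups from a colony of heterozygous breeders, so genotype and source of the animals cannot be told apart where WT and αERKO are compared. For RNA extraction and qPCR the study's methods describe 3 pools of mice in the WT-DES group and single mice in the other groups. Which animals make up each of the 4 sequenced WT-DES samples is not given in the sources used here, so p-values measure only the spread between these samples.

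In the polyol pathway an aldose reductase reduces glucose to sorbitol with NADPH, and sorbitol dehydrogenase then oxidises sorbitol to fructose with NAD+. Glucose enters the epithelial cell through facilitative carriers, and hexokinases compete for the same glucose by trapping it as glucose 6-phosphate, which the isomerase passes on to glycolysis. Ketohexokinase consumes fructose by phosphorylating it. In the SV the secretory epithelium releases the fructose into the seminal fluid, under androgen control, where it serves as fuel for sperm.

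Expression is given as FPKM, fragments mapped to a gene scaled to its exon length and to the size of the library, which allows levels of different genes to be set side by side. No counts of fragments are held in FPKM, so sequencing depth is unknown and the precision rests on the 4 samples of a group. FPKM summed over all genes reached 590446 to 652708 in WT-veh but 375207 to 437619 in WT-DES, and it lay between 479045 and 622477 in the αERKO samples. *Esr1* was between 2.81 and 19.6 FPKM in the WT samples and between 0.91 and 1.75 FPKM in the αERKO samples, without overlap, as the labels state. The samples express SV secretory genes (11 markers such as *Svs4* and *Svs5*) at a summed 61183 to 70701 FPKM in WT-veh and 2710 to 9143 FPKM in WT-DES, and 0 of the 11 were at 0 in all samples of any group.

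Marker genes of several cell types differed in level between WT-DES and WT-veh. In this comparison 52.7% of all tested genes were called, 28.9% higher and 23.9% lower, and the marker counts are to be read beside these shares. The 7 epithelial markers (*Epcam*, *Cdh1*, *Krt8*, *Krt18*, *Krt19*, *Cldn3* and *Cldn7*) summed to 1842 to 2067 FPKM in WT-veh but 922 to 1108 in WT-DES, with 1359.65 to 2284 over the αERKO samples, and 6 of the 7 were called lower in WT-DES than in WT-veh. Of the 3 basal epithelium markers (*Krt5*, *Krt14* and *Trp63*) 2 were called higher and 0 lower, with sums of 107 to 135 FPKM in WT-veh and 123 to 348 in WT-DES. All 6 fibroblast markers, all 5 endothelial markers, 6 of 10 adipose markers and 10 of 11 leukocyte markers were called higher, while the 11th, *Cd52*, was called lower. Smooth muscle markers summed to 2993 to 3734 FPKM in WT-veh and to 791 to 1256 in 3 WT-DES samples, but to 3580 in WT-DES sample 1. All 5 anterior prostate markers were lower in WT-DES, with sums of 29.4 to 387 FPKM against 3980 to 9569 in WT-veh (3379 to 5971 in the αERKO groups). None of the lists had a gene at 0 in all samples of a group, and the part of these differences in the results below was not tested. In bulk RNA, fewer cells of a type and less RNA per cell cannot be told apart.

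The 4 AKR1B genes lie next to each other on chromosome 6 of GRCm38 (GENCODE M21). *Akr1b3* is at 34302434 to 34317478 on the minus strand, *Akr1b8* at 34354119 to 34368463, *Akr1b10* at 34384218 to 34396950 and *Akr1b7* at 34412334 to 34423142, the last 3 on the plus strand. The cluster spans 120709 bp, with gaps of 36640, 15754 and 15383 bp between neighbours. Their longest coding transcripts are alike, with 70.4% to 71.5% aligned identity between *Akr1b3* and the others, 80.9% between *Akr1b7* and *Akr1b8*, 85% between *Akr1b7* and *Akr1b10* and 80.5% between *Akr1b8* and *Akr1b10*. Exact 50-nt windows shared between transcripts numbered 0 for *Akr1b3* with any other, 3 of 1232 for *Akr1b7* with *Akr1b8*, 14 of 1232 for *Akr1b7* with *Akr1b10*, and 31 of 1309 for *Akr1b8* with *Akr1b10*. *Sord* is on chromosome 2, from 122234749 to 122265340 on the plus strand.

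Promoter sequence is shown for the polyol genes with the largest changes, the pair *Akr1b7* and *Akr1b8*, which moved in opposite directions after DES, and *Sord*. Each window runs from 250 bases before to 50 bases after a RefSeq gene start on GRCm38.p6, 5′ to 3′ on the plus strand, at chr6:34412112-34412411, chr6:34353896-34354195 and chr2:122234589-122234888 respectively. Capitals mark matches to 4 motifs searched on both strands, the androgen receptor hexamer AGAACA, the oestrogen receptor hexamer AGGTCA, the AP-1 site TGANTCA and the antioxidant response core TGACNNNGC.
Akr1b7: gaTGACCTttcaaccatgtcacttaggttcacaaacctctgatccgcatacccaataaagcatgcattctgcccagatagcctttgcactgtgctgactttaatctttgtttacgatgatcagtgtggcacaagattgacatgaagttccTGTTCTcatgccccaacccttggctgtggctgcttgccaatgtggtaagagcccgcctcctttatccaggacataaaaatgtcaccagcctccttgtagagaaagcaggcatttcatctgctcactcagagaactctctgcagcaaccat
Akr1b8: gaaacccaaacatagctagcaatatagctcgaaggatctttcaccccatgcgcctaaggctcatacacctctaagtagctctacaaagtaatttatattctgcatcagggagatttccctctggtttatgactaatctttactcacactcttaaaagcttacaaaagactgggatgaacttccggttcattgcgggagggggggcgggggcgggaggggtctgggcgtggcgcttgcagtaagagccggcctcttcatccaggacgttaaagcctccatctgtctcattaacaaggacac
Sord: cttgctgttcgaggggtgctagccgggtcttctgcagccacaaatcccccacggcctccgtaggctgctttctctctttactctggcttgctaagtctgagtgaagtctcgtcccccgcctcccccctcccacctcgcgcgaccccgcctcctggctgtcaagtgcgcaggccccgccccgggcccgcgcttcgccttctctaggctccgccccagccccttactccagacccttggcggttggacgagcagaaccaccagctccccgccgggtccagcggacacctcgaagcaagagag
The *Akr1b7* window holds TGTTCT, the reverse complement of the androgen receptor hexamer, at positions −100 to −95 from the start, and TGACCT, the reverse complement of the oestrogen receptor hexamer, at −248 to −243. These letters were in 19.0% and 16.3% of 32851 promoter windows of the same length, against 7.81% for the AP-1 site and 12.4% for the antioxidant response core. The *Akr1b8* and *Sord* windows hold none of the 4 motifs. Of the 10 genes 9 had a window, and among the others *Hk1* alone held a match, AGAACA in the window of 1 start and TGACCGCGC in that of another.

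Differences were tested with limma on log2(FPKM + 1) in 1 model of all 16 samples, with Benjamini-Hochberg adjustment over the 15988 genes tested. A gene was called where the adjusted p did not exceed 0.05, the means differed at least 1.5-fold and 1 of the groups had a mean above 1 FPKM. In WT-DES vs WT-veh, *Sord*, *Akr1b3*, *Akr1b7* and *Slc2a1* fell and *Akr1b8* and *Hk2* rose, so that 6 of the 9 tested genes were called, 4 lower and 2 higher. Of all tested genes 52.7% were called in the same comparison, 23.9% lower and 28.9% higher, so the count of 6 is not far from the background, and the account that follows turns on sizes and on individual genes. The samples of the groups did not overlap for 8 of the 9 genes, against 66.7% of all tested genes. The median log2 change of the 9 genes was −0.51, beside −0.01 for all tested genes.

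**Figure D1:**
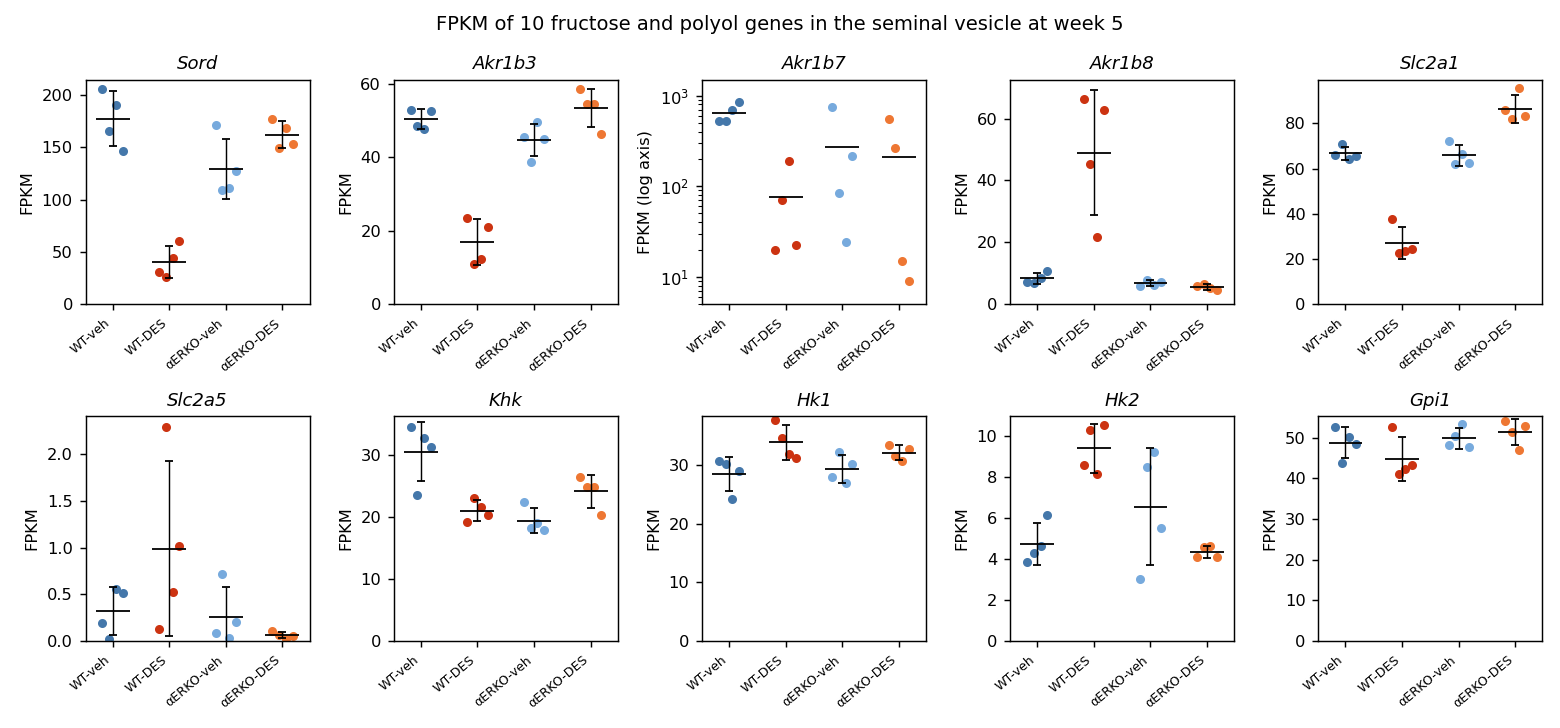
FPKM of the 10 genes (y axis, from 0, with a log axis for *Akr1b7*) in the 4 samples of each group (points), with the group mean as a horizontal line and, except for *Akr1b7*, the SD as a bar. *Sord*, *Akr1b3* and *Slc2a1* are lowest in all 4 WT-DES samples, *Akr1b8* is highest there, and *Akr1b7* spreads from 9.06 to 753 FPKM over the αERKO samples.

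*Sord*, whose product forms the fructose itself, fell in WT-DES. The WT-veh samples read 206, 166, 191 and 146 FPKM, and those of WT-DES 31.1, 25.6, 43.9 and 60.3. In αERKO-veh it was 171, 109, 111 and 127, and in αERKO-DES 177, 149.6, 169 and 153. Every WT-DES sample was below every sample of the other 3 groups. The group means were 177 ± 26.3 in WT-veh, 162 ± 12.97 in αERKO-DES, 129.6 ± 28.8 in αERKO-veh and only 40.2 ± 15.4 in WT-DES (SD, n = 4 each). The mean in WT-DES was 4.40-fold lower than in WT-veh, a log2 change of −2.17 (SE 0.21, limma adjusted p = 3.64e-07). Neighbours in that order could not be separated for αERKO-DES vs WT-veh (log2 difference −0.12, 95% interval −0.58 to 0.34, limma adjusted p = 0.764), nor for αERKO-DES vs αERKO-veh (0.34, 95% interval −0.11 to 0.80, limma adjusted p = 0.328).

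*Akr1b3*, the mouse aldose reductase that supplies sorbitol, also fell. The WT-veh samples were at 53.0, 48.6, 47.8 and 52.5 FPKM and the WT-DES samples at 23.5, 10.85, 12.25 and 20.97. Without ERα the levels were 45.6, 38.8, 49.7 and 44.9 after vehicle and 58.7, 54.6, 54.6 and 46.3 after DES. WT-DES again lay below all other samples. Its mean went from 50.5 ± 2.67 in WT-veh to 16.9 ± 6.28 in WT-DES (SD, n = 4 each), 2.99-fold lower, with a log2 change of −1.59 (SE 0.18, limma adjusted p = 1.92e-06). The 3 other groups, at 44.7 to 53.6 FPKM on average, gave no called difference in any pair. The level of *Sord* was above that of *Akr1b3* in all 16 samples.

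*Akr1b7*, an androgen-regulated aldo-keto reductase first known as a major protein of the mouse vas deferens, was the AKR1B gene with the highest level in WT-veh. Its FPKM was 529, 530.4, 695 and 845 there and 19.8, 70.85, 192 and 22.4 in WT-DES, with no overlap. The mean fell from 649.9 ± 152 to 76.2 ± 80.5 (SD, n = 4 each), 8.53-fold lower, with a log2 change of −3.65 whose standard error, 1.24, is wide (limma adjusted p = 0.0152). Without WT-DES sample 3, the highest of its group, the mean of WT-DES was 37.7 FPKM, 17.2-fold lower, and the log2 change −4.29. In the αERKO groups the samples of 1 group spread over more than 1 order of magnitude. The αERKO-veh samples read 753, 84.7, 24.4 and 215 FPKM, and the αERKO-DES samples 555, 264, 14.9 and 9.06. Each αERKO group thus held a sample at the level of WT-veh and a sample within or below the range of WT-DES. None of the comparisons with an αERKO group was called for *Akr1b7* (limma adjusted p from 0.117 to 0.756). The 5 anterior prostate markers summed to 5971, 4294, 5560 and 4880 FPKM in the αERKO-veh samples and to 4393, 3877, 4161 and 3379 in those of αERKO-DES. Averaged on the log2(FPKM + 1) scale, these markers reached 9.69, 8.91, 9.04 and 9.48 without DES and 7.68, 7.94, 7.39 and 7.20 after DES in the same αERKO samples. Over both αERKO groups together the extremes lay in the samples with the most and the least *Akr1b7*. But αERKO-veh sample 3 had more of these markers and less *Akr1b7* than αERKO-veh sample 2. Likewise αERKO-DES sample 2 had more of these markers and less *Akr1b7* than αERKO-DES sample 1. In WT-DES the sums of 387, 88.4, 29.4 and 195 FPKM ran in the reverse order of *Akr1b7*. Per the study's methods, the SVs were separated from the anterior prostate at dissection. The part of the anterior prostate in the *Akr1b7* values was not tested. Without αERKO-DES sample 1 the change vs WT-veh was −4.19 and was called (limma adjusted p = 0.0338), and the difference from WT-DES turned from 0.45 to −0.55 (−0.19 without αERKO-DES sample 2).

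*Akr1b8*, known as a growth factor-inducible aldo-keto reductase that acts on lipid-derived aldehydes, moved the other way. It was low in WT-veh, at 7.17, 6.85, 8.49 and 10.55 FPKM, and reached 66.2, 45.4, 21.7 and 62.6 in WT-DES. The αERKO samples stayed between 4.63 and 7.89 FPKM. The mean in WT-DES was 49.0 ± 20.3 against 8.265 ± 1.68 in WT-veh (SD, n = 4 each), a 5.93-fold ratio and a log2 change of 2.33 (SE 0.26, limma adjusted p = 1.37e-06). The WT-DES sample with the least *Akr1b8*, sample 3, was the one with the most *Akr1b7*.

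The shares of the 4 AKR1B genes in their summed FPKM differed between WT-veh and WT-DES. *Akr1b7* made up 84.1% to 89.5% in WT-veh, and *Akr1b8* 1.07% to 1.14%. In WT-DES *Akr1b8* made up 8.68% to 46.6% and *Akr1b7* 13.9% to 76.7%, with *Akr1b8* ahead of *Akr1b7* in WT-DES samples 1 and 4 and behind it in samples 2 and 3. In the αERKO groups *Akr1b8* stayed at 0.706% to 4.72%, including the samples with little *Akr1b7*. *Akr1b10*, the fourth gene of the cluster, went from 40.1 ± 2.73 FPKM in WT-veh to 29.3 ± 3.62 in WT-DES (SD, n = 4 each), and the log2 change of −0.44 (SE 0.11, limma adjusted p = 0.00167) was under the fold threshold. So *Akr1b7*, *Akr1b10* and *Akr1b8*, which follow each other in the cluster, had log2 changes of −3.65, −0.44 and 2.33.

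**Figure D2:**
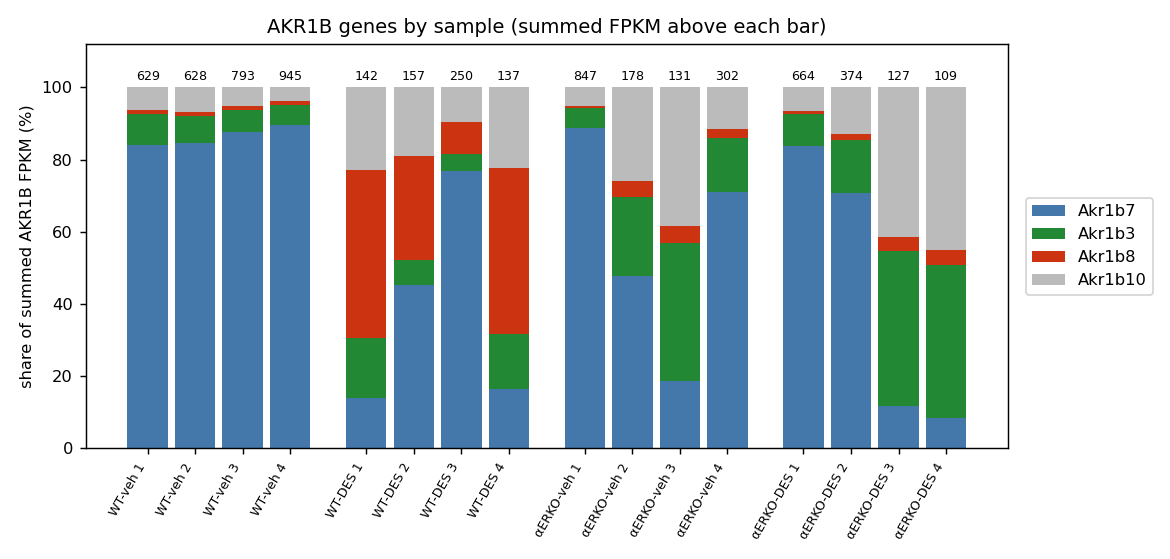
Share of each AKR1B gene in the summed FPKM of *Akr1b3*, *Akr1b7*, *Akr1b8* and *Akr1b10* (y axis, percent) in each of the 16 samples (bars), with the sum above each bar. *Akr1b7* takes 84.1% to 89.5% in every WT-veh sample, *Akr1b8* exceeds 5% only in the 4 WT-DES samples, and the *Akr1b7* share varies from 8.31% to 88.9% over the αERKO samples.

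*Khk*, whose product consumes fructose, was lower in αERKO-veh than in WT-veh. WT-veh samples held 34.4, 23.6, 32.7 and 31.2 FPKM, and αERKO-veh samples 22.4, 18.2, 19.0 and 17.9. After DES the values were 19.1, 23.0, 21.5 and 20.25 in WT and 26.3, 24.8, 24.85 and 20.3 in αERKO mice. WT-veh lay above αERKO-veh and WT-DES without overlap. *Khk* was the 1 gene of the 9 called in αERKO-veh vs WT-veh, with a log2 change of −0.62 (SE 0.11, limma adjusted p = 0.00545), where 7.12% of all tested genes were called and 2.63% called lower. This call was lost at −0.55 with quantile normalization, at −0.44 with rescaling without the 20 most abundant genes and at −0.39 with a correction for transcript length. In WT-DES the log2 change of −0.51 (SE 0.11, limma adjusted p = 0.000897) corresponded to a 1.45-fold lower mean and was not called. It was called at −0.62 without WT-veh sample 2 and at −0.55 without WT-DES sample 2, but shrank to −0.09 with rescaling without the 20 most abundant genes.

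Of the sugar carriers, *Slc2a1*, the basal glucose transporter of most cells, fell. Its FPKM was 66.2, 70.9, 64.2 and 65.6 in WT-veh and 37.7, 22.8, 23.4 and 24.35 in WT-DES. The mean went from 66.7 ± 2.91 to 27.1 ± 7.10 (SD, n = 4 each), 2.47-fold lower, a log2 change of −1.30 (SE 0.12, limma adjusted p = 2.34e-07). WT-DES sample 1, the highest of its group at 37.7, was also the WT-DES sample whose smooth muscle markers were at the WT-veh level. Without it the call held, as it did without any other single sample. *Slc2a1* was at 72.1, 62.0, 66.7 and 62.6 FPKM in αERKO-veh and at 85.8, 81.8, 95.55 and 83.1 in αERKO-DES. These groups did not overlap either, in the direction opposite to WT, but the log2 change of 0.39 (SE 0.12, limma adjusted p = 0.083) was not called.

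*Slc2a5*, the carrier that prefers fructose, was hardly detected. Wild type samples read 0.19, 0.02, 0.55 and 0.51 FPKM after vehicle and 0.13, 2.29, 0.52 and 1.02 after DES. The αERKO samples read 0.08, 0.72, 0.03 and 0.20 FPKM after vehicle and 0.10, 0.06, 0.02 and 0.05 after DES. All αERKO-DES samples were at 0.10 or below, and 2 of the 16 samples, both WT-DES, were above 1 FPKM. Summed FPKM of the 10 adipose markers came to 695, 237, 803 and 1153 in the WT-veh samples, to 1238, 1545, 923 and 2190 in the WT-DES samples, to 441, 1168, 101 and 474 in those of αERKO-veh, and to no more than 73.4 in any αERKO-DES sample. The sample with the most *Slc2a5* in αERKO-veh, sample 2, was also the one with the most adipose marker signal, but in WT-DES the most *Slc2a5* was in sample 2 and the most adipose signal in sample 4. The part of adipose tissue in the *Slc2a5* values was not tested.

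The hexokinases behaved differently from each other. *Hk1*, the housekeeping form, spanned 24.2 to 30.7 FPKM in WT-veh and 31.3 to 37.7 in WT-DES, and 27.0 to 33.6 over the 8 αERKO samples. Its log2 change of 0.24 in WT-DES (SE 0.08, limma adjusted p = 0.0148) was a ratio of 1.19 and not called. *Hk2*, the inducible form of muscle, fat and proliferating cells, rose from 3.84, 4.26, 4.63 and 6.14 FPKM in WT-veh to 8.58, 10.3, 8.15 and 10.5 in WT-DES. The ratio of means was 1.99 and the log2 change 0.87 (SE 0.23, limma adjusted p = 0.00286), without overlap of the samples. *Hk2* nevertheless stayed below *Hk1* in all 16 samples.

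In αERKO-veh *Hk2* was uneven, at 2.99, 8.45, 9.21 and 5.51 FPKM, and in αERKO-DES it was even, at 4.09, 4.56, 4.63 and 4.10. A list of 16 skeletal muscle markers averaged 3.57, 6.35, 6.92 and 6.06 on the log2(FPKM + 1) scale in the same 4 αERKO-veh samples, so the sample with the least *Hk2* had the least muscle signal, and it was 1.75 to 2.20 in αERKO-DES. In WT-veh the same mean was 6.19 in sample 4, which had the most *Hk2* of that group, and 1.95 to 3.19 in the others. In WT-DES, where *Hk2* was highest on average, it was 1.32 to 2.23. Without αERKO-veh sample 1, *Hk2* was called lower in αERKO-DES than in αERKO-veh (−0.68, limma adjusted p = 0.0224) and higher in αERKO-veh than in WT-veh (0.60, limma adjusted p = 0.014), and with all samples it was not called in either.

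*Gpi1*, which carries glucose 6-phosphate into glycolysis, had group means that lay close together. After vehicle they were 48.8 ± 3.83 FPKM in WT and 49.9 ± 2.56 in αERKO mice, and after DES 44.8 ± 5.37 and 51.4 ± 3.14 (SD, n = 4 each). The samples of WT-DES and WT-veh overlapped, and the log2 change of −0.12 had a 95% interval of −0.30 to 0.05 (limma adjusted p = 0.186). The sign of this small change depended on the scaling, with 0.28 after quantile normalization and 0.30 after rescaling without the 20 most abundant genes.

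The rescaling moved the median of all tested genes in WT-DES vs WT-veh from −0.01 to 0.38, and the share of called genes that were higher from 54.7% to 79.2%. That share went from 63.1% to 92.4% in αERKO-veh vs WT-veh, from 44.5% to 23.6% in αERKO-DES vs WT-DES and from 52.4% to 78.8% for the difference between genotypes. Under it *Sord* was at −1.75, *Akr1b3* at −1.18, *Akr1b7* at −3.22, *Slc2a1* at −0.88, *Akr1b8* at 2.74 and *Hk2* at 1.25, all in the direction given above and called, while *Hk1* was called at 0.67 and *Khk* went to −0.09. With *Slc2a5*, which passed the minimum FPKM after the rescaling and was called higher (0.67, limma adjusted p = 0.0451), 8 genes of the set were called. *Slc2a5* also passed and was called without WT-DES sample 1 (0.74, limma adjusted p = 0.0124), but without any minimum FPKM it was tested and not called (0.50, limma adjusted p = 0.114).

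Ratios within a sample were taken on the log2(FPKM + 1) scale, on which a scaling of the whole sample nearly cancels for abundant genes but not for *Slc2a5*. *Sord* relative to the mean of the 7 epithelial markers had log2 values of −0.13, −0.44, −0.16 and −0.71 in WT-veh and of −1.95, −2.34, −1.47 and −0.98 in WT-DES. The mean difference was −1.33, so *Sord* was lower in WT-DES also when set against epithelial markers, in 4 of 4 samples. *Akr1b3* relative to the same markers went from a mean of −2.14 to −2.88, a difference of −0.74, again without overlap. The *Hk2* to *Hk1* ratio differed by 0.62 and the *Khk* to *Hk1* ratio by −0.75, and the *Sord* to *Akr1b3* ratio, which overlapped between the groups, by −0.58 (exact permutation test, two-sided, p = 0.143). The other 4 differences had the smallest p that 4 against 4 samples allow (exact permutation test, two-sided, p = 0.0286), as did *Slc2a5* to *Slc2a1* at 1.80 (2.53 with a pseudocount of 0.1, which no longer had the smallest p), and with adjustment over 30 tests they did not pass 0.05 (exact permutation test, adjusted p = 0.0779). In αERKO-DES vs αERKO-veh the *Sord* to epithelium difference was 0.09 and that of *Akr1b3* 0.00155 (exact permutation test, two-sided, p = 0.629 and 0.914).

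**Figure D3:**
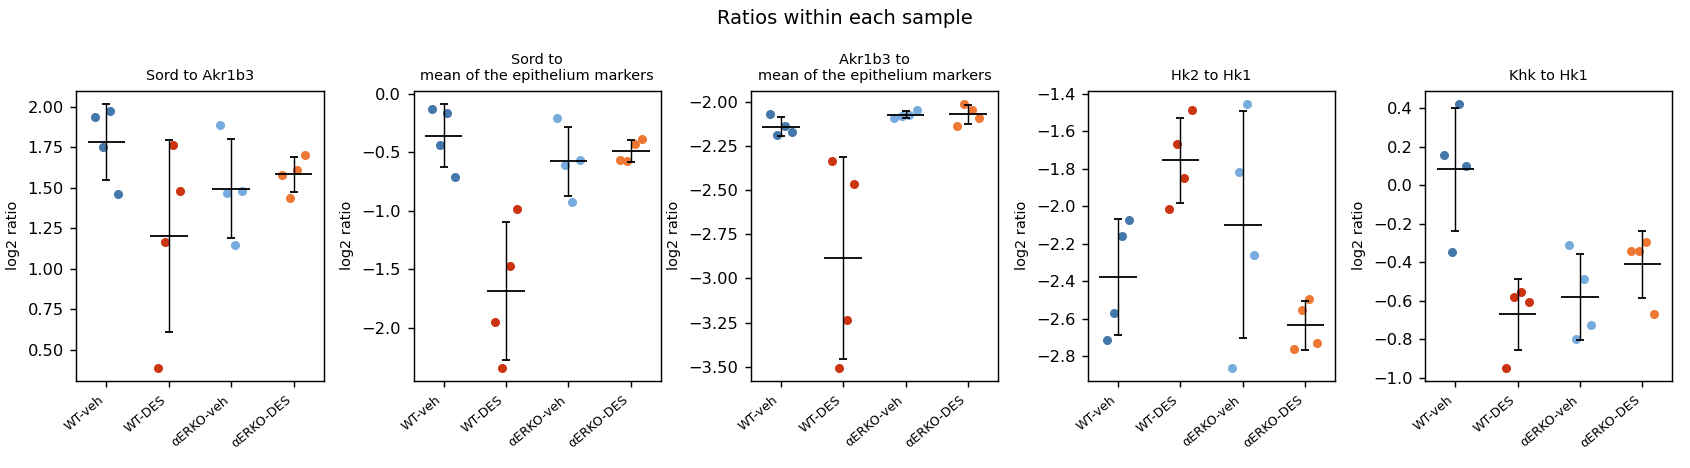
Log2 ratios of 2 genes, or of a gene to the mean log2 level of 7 epithelial markers, within each sample (points, y axis, on the log2(FPKM + 1) scale), with the group mean as a line and the SD as a bar. *Sord* and *Akr1b3* relative to the epithelial markers lie lower in all 4 WT-DES samples than in any other sample, and the *Sord* to *Akr1b3* ratio overlaps between all groups.

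Without ERα, DES left the set without a called gene. In αERKO-DES vs αERKO-veh 0 of the 9 were called, where 1.49% of all tested genes were, and the log2 changes ran from −0.98 for *Akr1b7* (SE 1.24) to 0.39 for *Slc2a1*. At an unadjusted p under 0.05, 2 of the 9 remained, *Slc2a1* (0.00625) and *Khk* (0.0193), both in the limma fit and both higher in αERKO-DES, beside 4042 of all 15988 tested genes. The 95% intervals were −0.11 to 0.80 for *Sord*, −0.14 to 0.65 for *Akr1b3* and −0.81 to 0.30 for *Akr1b8*. In αERKO-DES vs WT-veh, 0 of the 9 were called either, against 3.18% of all tested genes, with an unadjusted limma p under 0.05 for 3 of the 9, *Akr1b7*, *Slc2a1* and *Khk*, beside 4228 of all 15988.

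Between the DES groups, 5 of the 9 were called, against 53.4% of all tested genes. *Sord* (log2 difference 2.05), *Akr1b3* (1.67) and *Slc2a1* (1.67) were higher in αERKO-DES than in WT-DES, where 23.7% of all tested genes were called higher. *Akr1b8* (−2.82) and *Hk2* (−0.95) were lower, where 29.6% were called lower. The test of whether the DES change differed between the genotypes, with the log2 change of αERKO mice subtracted from that of WT mice, called 6 of the 9, against 56.4% of all tested genes. These were *Sord* (−2.51, SE 0.30), *Akr1b3* (−1.85, SE 0.26), *Slc2a1* (−1.69, SE 0.17), *Khk* (−0.81, SE 0.16), *Akr1b8* (2.58, SE 0.37) and *Hk2* (1.27, SE 0.32), with limma adjusted p-values from 9.52e-07 to 0.00241. The *Khk* difference was not called with rescaling (−0.26) or with the length correction (−0.42). For *Akr1b7* the difference was −2.67 with a 95% interval of −6.40 to 1.07, so a genotype difference in its DES response was not shown with this spread (limma adjusted p = 0.183). These comparisons share their WT-DES or αERKO-DES samples with those above.

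**Figure D4:**
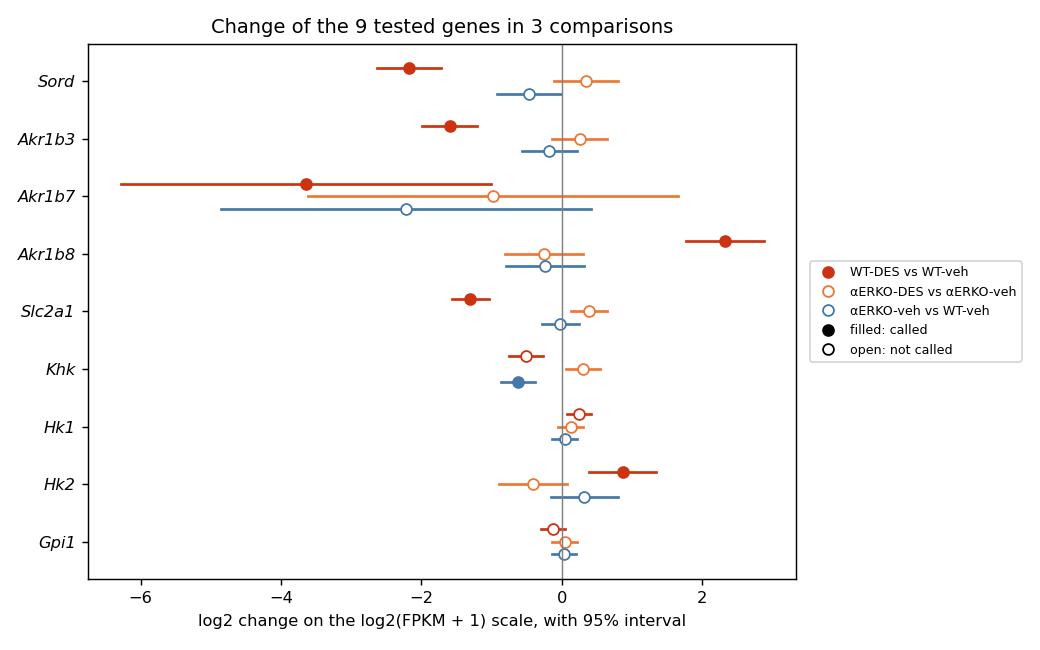
Log2 change on the log2(FPKM + 1) scale (x axis) with its 95% interval for the 9 tested genes (y axis) in WT-DES vs WT-veh, αERKO-DES vs αERKO-veh and αERKO-veh vs WT-veh, filled where called. The WT-DES points run from −3.65 for *Akr1b7* to 2.33 for *Akr1b8*, 0 points of αERKO-DES vs αERKO-veh are filled, and *Khk* is the 1 filled point of αERKO-veh vs WT-veh.

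The wider sugar metabolism lists held 85 genes in the table, of which 74 were tested, the 9 above included. In WT-DES vs WT-veh, 20 were called higher and 25 lower, 60.8% of those tested, with a median log2 change of −0.36 beside −0.01 for all genes. Of all tested genes 28.9% were called higher and 23.9% lower, 52.7% together, so the share is near the background, and the counts of the single lists below are to be read beside these shares. Of the 9 tested genes of fructose and polyol metabolism, 6 fell and 1 rose. Besides *Sord*, *Akr1b3* and *Akr1b7*, these were *Akr1a1* (aldehyde reductase), from 566 ± 32.5 to 268 ± 12.01 FPKM with a log2 change of −1.08, *Dcxr* (L-xylulose reductase), from 142 ± 16.4 to 69.1 ± 12.3 with −1.03, and *Dak* (triokinase, which phosphorylates the glyceraldehyde made from fructose), from 14.6 ± 0.592 to 7.41 ± 0.789 with −0.90 (SD, n = 4 each). The median of this list was −1.03. *Akr1a1* stood above all 4 AKR1B genes except *Akr1b7* in WT-veh.

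Among 12 tested hexose transport genes, 6 rose and 3 fell. *Slc5a1*, the sodium-coupled glucose carrier SGLT1, fell from 20.98 ± 1.31 to 4.995 ± 2.07 FPKM (log2 change −1.93, SE 0.16), and *Slc2a10* fell from 18.1 ± 1.83 to 6.09 ± 0.979 (−1.44, SE 0.10). *Slc2a9*, a urate carrier, rose from 0.902 ± 0.112 to 3.03 ± 0.445 FPKM, *Slc2a6* from 3.14 ± 0.428 to 7.765 ± 1.38 and *Slc5a9* from 0.61 ± 0.342 to 2.35 ± 0.502 (SD, n = 4 each), with log2 changes of 1.07 to 1.08. The 6 also include *Txnip*, an arrestin-like inhibitor of glucose uptake and no carrier itself, with means of 192 FPKM in WT-veh and 313 in WT-DES. Thus the carriers with means above 15 FPKM that were called, *Slc2a1*, *Slc5a1* and *Slc2a10*, fell, and the 3 named risers were at or below 3.14 FPKM in WT-veh. *Slc2a4*, the insulin-responsive carrier GLUT4, was at 22.4 to 25.7 FPKM in WT-veh and at 47.0, 22.6, 16.2 and 24.0 in WT-DES, highest in the sample with the most smooth muscle signal.

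Of 6 tested hexose kinases 2 rose and 2 fell. *Hk3*, the hexokinase of myeloid blood cells, rose from 0.6025 ± 0.129 to 7.175 ± 2.46 FPKM (SD, n = 4 each), a ratio of 11.9 and a log2 change of 2.30 (SE 0.18, limma adjusted p = 3.56e-08), in a comparison where 10 of 11 leukocyte markers were called higher. The αERKO samples read 0.33 to 0.63 FPKM after vehicle and 0.39 to 0.51 after DES. *Galk1* (galactokinase) fell by 0.86 and *Adpgk* (ADP-dependent glucokinase) by 0.65 on the log2 scale.

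Glycolysis was split, with 6 of 23 genes higher and 7 lower. *Slc16a3* (the lactate exporter MCT4) fell from 29.6 ± 4.39 to 9.29 ± 5.55 FPKM, *Pgk1* from 20.6 ± 2.55 to 8.935 ± 2.09 and *Eno3*, the muscle enolase, from 42.7 ± 35.4 to 14.9 ± 1.42. The *Eno3* mean in WT-veh rested on sample 4, at 95.7 FPKM against 22.3 to 27.0 in the others, the sample with the high skeletal muscle signal, and without it the *Eno3* mean in WT-DES was 1.68-fold lower. *Pfkp* (platelet-type phosphofructokinase), *Slc16a1* (MCT1) and *Eno2* (neuronal enolase) rose, with log2 changes of 1.30, 1.13 and 1.10. In the pentose phosphate list 2 of 7 were called, and both fell. *Pgls* went from 232 ± 26.8 to 99.5 ± 6.92 FPKM and *Taldo1* from 247 ± 22.9 to 117 ± 8.74 (SD, n = 4 each).

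Of the glycogen genes 3 of 10 rose and 1 fell. *Pygl* (liver glycogen phosphorylase) rose from 8.20 ± 2.42 to 27.2 ± 5.66 FPKM, *Pgm1* (phosphoglucomutase) rose with a log2 change of 0.73, and *Ugp2*, which makes UDP-glucose, fell by 0.76 on the log2 scale. Of the gluconeogenesis genes 4 of 7 fell, with *Pck2* from 94.3 ± 15.1 to 34.8 ± 4.64 FPKM, *G6pc3* from 77.4 ± 3.88 to 33.3 ± 4.46 and *Fbp1* from 11.1 ± 1.25 to 4.41 ± 1.34, and 2 rose. *Pck1*, the cytosolic form used by liver, kidney and fat, rose from 10.2 ± 6.75 to 41.3 ± 18.9 FPKM (SD, n = 4 each), with values of 23.6, 43.0, 31.6 and 67.1 in WT-DES. WT-DES sample 4, the highest in *Pck1*, was also the highest in summed adipose markers, at 2190 FPKM.

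**Figure D5:**
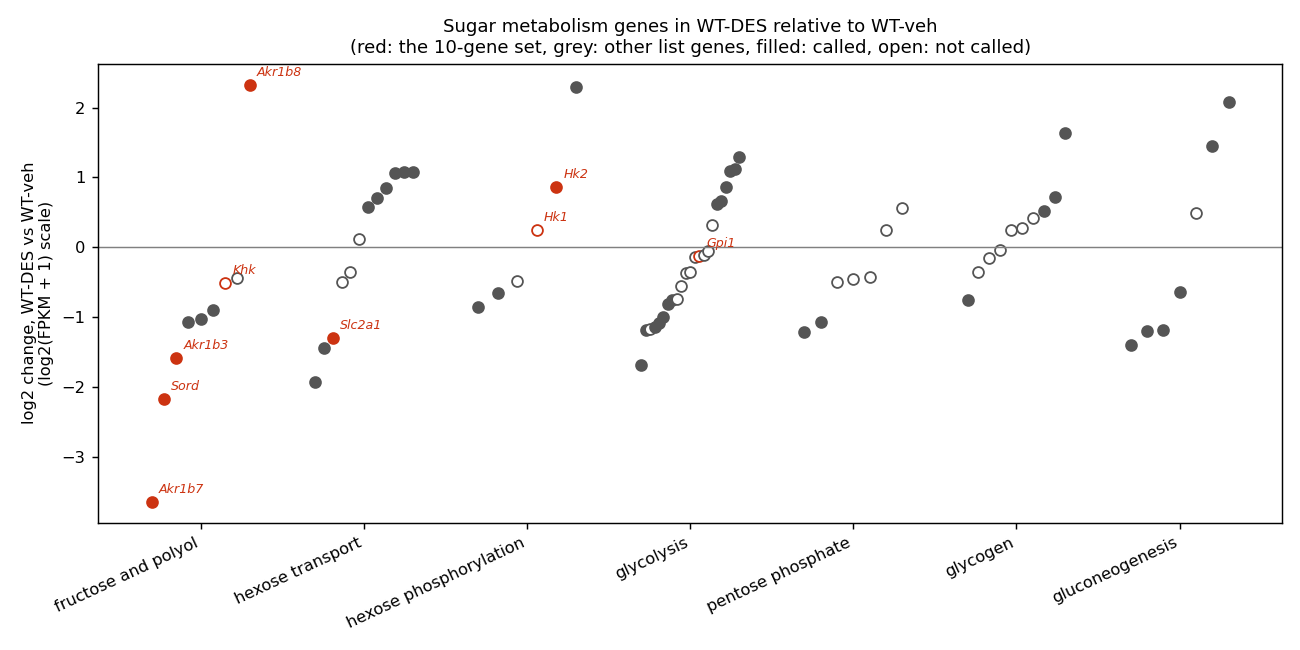
Log2 change in WT-DES vs WT-veh on the log2(FPKM + 1) scale (y axis) of the 74 tested sugar metabolism genes, sorted within 7 lists (x axis), with the 9 tested genes of the set in red and named and the others in grey, filled where called. Of the 7 filled points of the fructose and polyol list 6 lie below 0 and *Akr1b8* lies at 2.33, while the glycolysis points spread to both sides.

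In αERKO-DES vs αERKO-veh 4 of the 74 were called, all lower, where 1.49% of all tested genes were called and 1.41% called lower. These were *Slc2a3* (−0.65), *Slc5a9* (−0.72), *Eno2* (−0.93) and *Pck1* (−3.27). The count of 4 depended on the processing, with 0 after quantile normalization or with only the groups compared, and 11 with arrayWeights. With 1 sample left out it ranged from 0 to 10. *Pck1* was at 13.6, 51.0, 1.30 and 13.3 FPKM in αERKO-veh and at 0.12 to 0.67 in αERKO-DES, and 5 of 10 adipose markers and 11 of 16 skeletal muscle markers were called lower in the same comparison (median log2 changes of −2.75 and −4.18), as was 1 marker each of the anterior prostate, fibroblast and endothelium lists. In αERKO-veh vs WT-veh *Slc2a13* (0.36) and *Slc2a3* (0.57) were called higher, beside *Khk*, where 7.12% of all tested genes were called and 4.5% called higher. Of the skeletal muscle markers 8 of 16 were called higher there (median 2.64), as were 2 of 5 endothelial markers, and 1 of 11 leukocyte markers was called lower. The part of these tissues in the calls was not tested. Neither comparison called *Sord* or an AKR1B gene.

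The genes whose levels followed those of the set most closely were sought among 10062 other tested genes with a mean of at least 10 FPKM in 1 group (10063 for *Slc2a5*), over 16 samples that fall into 4 groups, so that the group differences enter the correlation. For *Sord* these were *Bcas3*, *Cux2* and *Gm1673* (Pearson r = 0.990, 0.989 and 0.987, and 0.913, 0.923 and 0.885 after the group means were removed), and for *Akr1b3* *A630095E13Rik*, *Svs3a* and *Svs3b* (r = 0.990, 0.989 and 0.988, and 0.945, 0.924 and 0.922 without the group means). Both trios were lowest in WT-DES, for instance *Cux2* with a mean of 33.8 FPKM in WT-veh and 4.38 in WT-DES and *Svs3a* with 3835 and 179. For *Akr1b7* they were *Cited1*, *Serpina1f* and *Crygc* (r = 0.957, 0.945 and 0.923), and r = 0.934, 0.959 and 0.892 without the group means. For *Slc2a5* they were *Acss2*, *Fasn* and *Pcx* (r = 0.961, 0.934 and 0.929, and 0.937, 0.912 and 0.884 without the group means). *Fasn* (fatty acid synthase) had a mean of 109 FPKM in WT-DES, against 48.9 in WT-veh, and means of 58.7 and 42.6 in αERKO mice after vehicle and DES.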

How the data were processed

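FPKM values were deposited by the authors for 31274 genes in 16 samples, in 1 table. Per the labels and the study's methods, the authors sequenced paired-end reads of 126 nt on an Illumina HiSeq, discarded low-quality reads (average score of 20 or less), mapped the rest to mm10 by TopHat 2.0.4 and computed FPKM with Cufflinks 2.0.2. The gene annotation of the table and any further scaling between libraries are not given in the sources used here. FPKM adjusts for library size and gene length, so a drop in a few very abundant transcripts can raise the values of all others, and a gene near a close copy may share its fragments. All columns matched a sample (0 unassigned).

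Genes with a mean above 1 FPKM in at least 1 group (15988) were analysed as log2(FPKM + 1) with limma 3.58.1 in R 4.3.3, fitting group means, moderating variances by eBayes with a trend on expression, and adjusting p by Benjamini-Hochberg within each comparison. The pseudocount understates changes of genes with low FPKM. The thresholds for a call (0.05 and 1.5-fold) came from the study's methods. The authors' Cuffdiff needs alignments and was not run. For ratios within samples, two-sided exact permutation tests used all 70 arrangements, adjusted over 30 tests. The steps were tested on simulated data. Alternatives were a pseudocount of 0.1, no minimum FPKM, a minimum of 5, quantile normalization, rescaling without the 20 genes of highest mean, median-ratio scaling, a model of only the groups compared, arrayWeights, a replicate block, leaving out each sample in turn and, chosen after seeing the data, a correction for transcript length (lowess, span 0.3), for which 94.1% of tested genes had a length.

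The members and lists were chosen with earlier results of these data known. The genes named are the members, up to 3 called genes of largest rise and fall per pathway list in WT-DES vs WT-veh without overlap of samples, every pathway gene called in αERKO-DES vs αERKO-veh or αERKO-veh vs WT-veh, the 3 genes of highest correlation to *Sord*, *Akr1b3*, *Akr1b7* and *Slc2a5*, *Esr1*, and, chosen after their values were seen, *Akr1b10*, *Slc2a4*, *Txnip* and *Cd52*. A gene that these rules also select is not reported here. Of the 4 erythroid markers 2 were in the table, and 0 were called. Transcript identity was aligned with Biopython 1.88, and the figures were drawn with matplotlib 3.10.9.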

Additional observations from a re-analysis of the deposited data

Results flagged for a closer look

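Single samples were compared with the other 3 of their group by Dixon's ratio of the gap at either end to the whole range, at its 95% level. Of 64 groups of values compared in this way 4 passed it, where chance flags about 1 group in 20. WT-DES sample 1 stood above its group for *Slc2a1* at 37.67 FPKM. αERKO-DES sample 3 stood below its group for the log2 ratio of *Slc2a5* to *Slc2a1* at −6.56, where *Slc2a5* was at 0.02 FPKM. For the log2 ratio of *Khk* to *Hk1*, αERKO-DES sample 4 stood below its group at −0.67 and WT-DES sample 1 at −0.95.

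The log2 change with DES differed between WT and αERKO, by the limma test of the difference itself, for 6 of the 9 tested genes. Of all tested genes 56.4% were called in this test, so the count is not far from the background. The change in WT minus that in αERKO was −2.51 for *Sord*, −1.85 for *Akr1b3*, −1.69 for *Slc2a1*, −0.81 for *Khk* (not called with rescaling, at −0.26, or length correction, at −0.42), 2.58 for *Akr1b8* and 1.27 for *Hk2*. For all 6 the fitted change in αERKO had the sign opposite to that in WT. In αERKO 0 of the 6 were called, where 1.49% of all tested genes were called.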

How the results depend on the processing

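Depth is unknown from FPKM, so low genes such as *Slc2a5* have no stated precision beyond their spread. The calls of *Sord*, *Akr1b3*, *Akr1b7*, *Akr1b8*, *Slc2a1* and *Hk2* in WT-DES vs WT-veh held under all 26 alternatives. The causes of the changes below were not tested. Sugar metabolism genes called in αERKO-DES vs αERKO-veh numbered 8 with a pseudocount of 0.1, 2 without a minimum FPKM, 0 with quantile normalization or only the groups compared, 7 with rescaling, 11 with arrayWeights and 8 with the length correction, against 4. In αERKO-DES vs WT-veh they numbered 1 without a minimum, with quantile normalization or with rescaling, against 3, and in αERKO-veh vs WT-veh 10 with arrayWeights and 0 with the length correction, against 4. With 1 sample left out, these 3 counts ranged from 0 to 10, from 0 to 5 and from 2 to 11. The *Khk* call in αERKO-veh vs WT-veh, and so the count of members, went from 1 to 0 with quantile normalization, rescaling and length correction. With 1 sample left out, members called ranged from 1 to 2 there, from 0 to 1 in αERKO-DES vs αERKO-veh (*Hk2*) and from 0 to 1 in αERKO-DES vs WT-veh (*Akr1b7*). The *Khk* genotype difference was not called with rescaling (−0.26) or length correction (−0.42), and that of *Hk1* was called with rescaling (0.66).

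Signs that changed belonged to differences that were not called. With quantile normalization these were *Gpi1* in WT-DES vs WT-veh (0.28), αERKO-DES vs αERKO-veh (−0.074), αERKO-DES vs WT-DES (−0.20) and the genotype difference (0.35), and *Slc2a1* in αERKO-veh vs WT-veh (0.14). With rescaling they were *Gpi1* in the same 4 (0.30, −0.088, −0.18 and 0.39), *Akr1b3* (0.0033) and *Slc2a1* (0.16) in αERKO-veh vs WT-veh, and *Khk* in αERKO-DES vs WT-DES (−0.18). ArrayWeights, whose iteration stopped before its tolerance was met, turned *Gpi1* in αERKO-veh vs WT-veh (−0.033). The length correction turned *Akr1b8* (0.025), *Slc2a1* (0.014) and *Hk1* (−0.013) in αERKO-veh vs WT-veh, and *Hk1* in αERKO-DES vs WT-DES (0.0092) and in the genotype difference (−0.022). With 1 sample left out, the range crossed 0 in αERKO-veh vs WT-veh for *Slc2a1* (−0.064 to 0.0089), *Gpi1* (−0.016 to 0.073) and *Hk1* (−0.031 to 0.082), in αERKO-DES vs WT-veh for *Hk2* (−0.16 to 0.029), and in αERKO-DES vs WT-DES for *Akr1b7* (−0.55 to 1.38). With a pseudocount of 0.1 the *Slc2a5* to *Slc2a1* differences of WT-DES and αERKO-DES from WT-veh, 2.53 and −1.52, and of αERKO-DES from αERKO-veh, −1.22, no longer had the smallest exact permutation p.

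Samples share replicate numbers but the 24 same-numbered pairs had correlations of −0.21 to 0.28, with 3 above 0.1, so the numbers do not pair them. A replicate block gave 6 members called in WT-DES vs WT-veh and 5 in αERKO-DES vs WT-DES, as without the block.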
